A study of Mus musculus with 18 samples.

Results

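The genes described here are 10 inhibitors of the Ras-ERK and related MAP kinase pathways: the dual-specificity phosphatase genes Dusp1, Dusp2, Dusp4, Dusp5, Dusp6 and Dusp10, the Sprouty genes Spry1 and Spry2, and the Spred genes Spred1 and Spred2. They were taken by name from the 55487 genes in the count tables, matched through their Ensembl identifiers, and all 10 were found. They were measured by RNA-seq in WEHI-231, a mouse line derived from an immature B cell lymphoma, with 18 libraries in 9 groups of 2. The groups were parental cells, the TFEB KO clone #A-59 and the TFEB KO clone #B-20. Each genotype was taken before stimulation (0 h) and after 6 and 18 h of BCR crosslinking by anti-mouse IgM F(ab')2 at 10 µg/ml. The clones carry CRISPR/Cas9 edits made with a crRNA against exon 3 or exon 5 of Tfeb. Each clone grew from a single cell, so that a difference between a clone and parental cells cannot be told apart from differences between clones of 1 line. The questions put to these genes were whether BCR stimulation changed them and whether cells without intact TFEB, a transcription factor of lysosomal and stress genes, held other levels.

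ERK is switched on by a chain that runs from the receptor through Ras, Raf and MEK, and it is switched off again by phosphatases of the Dusp family, which remove phosphate from both the threonine and the tyrosine of the active kinase. Dusp1, Dusp2, Dusp4 and Dusp5 are nuclear enzymes, of which Dusp5 acts on ERK alone, whereas Dusp6 holds ERK in the cytoplasm and Dusp10 prefers JNK and p38. Sprouty and Spred proteins act further up, where Spred proteins bring neurofibromin, a Ras inactivator, to the membrane. Several of these genes are themselves induced by ERK and for this reason serve as feedback inhibitors and as readouts of the pathway in lymphocytes.

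RefSeq promoter windows of GRCm38, 250 bases before to 50 bases after the start of the gene, were held for 9 of the 10 genes, and Dusp4 had no entry. These windows were searched on both strands for the E-box CACGTG, the core of the site that TFEB binds. Dusp1 and Dusp2 held it, against 7.15% of all 32851 windows in the table. The windows of both genes are shown for this E-box, and those of Dusp5 and Dusp6 as the pair whose products act chiefly on ERK. Capitals mark motif matches.
Dusp1, chr17:26508423-26508722, minus strand: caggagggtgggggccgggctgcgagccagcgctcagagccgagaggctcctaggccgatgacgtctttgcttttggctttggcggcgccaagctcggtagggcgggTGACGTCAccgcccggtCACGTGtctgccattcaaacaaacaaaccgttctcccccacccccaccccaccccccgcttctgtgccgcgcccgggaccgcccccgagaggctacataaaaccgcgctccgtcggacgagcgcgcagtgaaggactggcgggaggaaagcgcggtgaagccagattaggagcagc
Dusp2, chr2:127335909-127336208, plus strand: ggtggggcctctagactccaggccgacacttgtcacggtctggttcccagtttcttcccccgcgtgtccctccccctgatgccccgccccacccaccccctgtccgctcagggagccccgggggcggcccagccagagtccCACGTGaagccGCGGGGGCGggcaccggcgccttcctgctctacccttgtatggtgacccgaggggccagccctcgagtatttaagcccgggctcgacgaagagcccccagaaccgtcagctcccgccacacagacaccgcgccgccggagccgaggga
Dusp5, chr19:53528895-53529194, plus strand: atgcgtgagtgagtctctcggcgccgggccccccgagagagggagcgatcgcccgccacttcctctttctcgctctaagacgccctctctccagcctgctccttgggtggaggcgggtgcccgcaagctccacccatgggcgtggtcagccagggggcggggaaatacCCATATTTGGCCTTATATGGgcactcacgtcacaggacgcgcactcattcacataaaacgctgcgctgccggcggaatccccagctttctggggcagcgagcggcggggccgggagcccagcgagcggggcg
Dusp6, chr10:99262981-99263280, plus strand: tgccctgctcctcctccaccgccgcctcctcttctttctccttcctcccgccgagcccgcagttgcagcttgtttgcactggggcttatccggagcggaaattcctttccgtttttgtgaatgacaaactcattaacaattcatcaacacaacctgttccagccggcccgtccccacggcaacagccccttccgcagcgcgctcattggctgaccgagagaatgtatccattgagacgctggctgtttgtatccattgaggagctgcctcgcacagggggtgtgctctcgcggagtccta

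The E-box began at position −126 of Dusp1 and −109 of Dusp2, counted from the gene's start. Dusp1 also held the cAMP response element TGACGTCA at −143 (1.79% of all windows), and Dusp2 the EGR site GCGGGGGCG at −98 (2.91%). Dusp5 held a pair of adjoining CArG boxes, the core of the serum response element, at −82 and −72, against 1.63% of all windows with at least 1, and the box was in no other of the 9 windows. It was searched in its general form, which reads the same on both strands, a search added after the windows were seen. The serum response element planned before, with fixed letters, was in none of the 9 windows (0.0639% of all windows). The AP-1 site TGACTCA (5.2% of all windows) and the ETS site CCGGAAGT (3.89%) were in none of the 9 windows. A match or its absence describes these letters only.

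In the libraries, which held 11223588 to 29655262 counts on genes, 15318 genes had enough counts for a test. Levels are CPM, counts scaled to a common library size after TMM normalization. FDRs are adjusted p-values (Benjamini-Hochberg, over all genes tested) from the quasi-likelihood test of edgeR. DEGs had an FDR under 0.01 and a log2 change beyond 1 or −1, and a second, weaker call took every change with an FDR under 0.01. Tfeb itself held 79.2 to 99.9 CPM in parental libraries, 25.5 to 40.5 CPM in #A-59 and 34.2 to 54.1 CPM in #B-20, so that every clone library lay below every parental one. All 9 B cell markers were detected in every library, with a summed level of 6496 to 12910 CPM. Of 7 T cell markers, Cd8b1 (mean 64.6 CPM) was the 1 with counts in every library, and the list summed to 47.8 to 98.4 CPM. The 7 myeloid markers summed to 2.0 to 27.9 CPM and the 5 plasma cell markers, led by Xbp1, to 97.4 to 240.3 CPM. Between clones and parental cells, 4.78% to 7.91% of all genes were DEGs. Of 3 myeloid markers tested, 1 to 2 were higher as DEGs in #A-59 at each time and 1 in #B-20 at 0 and 6 h. Of 3 plasma cell markers tested, 1 was lower in #A-59 at 18 h and 1 was higher and 1 lower in #B-20 at 18 h. No B cell marker was a DEG against parental cells. By the FDR 4 of 9 were higher and 2 lower in #A-59 at 6 h (22.7% of all genes) and 1 higher at 18 h (10.4%). In #B-20, 3 were lower at 0 h (10.7%) and at 18 h (14.2%), and 2 higher and 2 lower at 6 h (14.2%). Against #A-59, #B-20 had 2, 6 and 4 lower at 0, 6 and 18 h (8.41%, 18.7% and 16.2%), 1 as a DEG at 6 h. The markers also moved with stimulation. By the FDR 6 of 9 B cell markers were lower after 6 h in the parental line (7.34% of all genes in either direction). They were 2 in the clone #B-20 (1.29%) and 0 in the other clone (6.14%). From 6 to 18 h all 9 were higher in the parental line (median log2 change 0.76) and in #A-59 (0.58), and 8 were higher in #B-20 (0.55). The shares of all genes that passed in either direction were 38.3%, 31.9% and 22.6%. Over the BCR comparisons, up to 2 of the 3 myeloid markers were higher as DEGs. Up to 1 of the 3 plasma cell markers was higher and up to 1 lower, beside 0.385% to 13.5% of all genes. Their part in the results was not tested, and fewer cells of a type and less RNA per cell cannot be told apart in these libraries.

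Per kb of exon length, Dusp2 was the most abundant of the genes with a mean of 99.8 CPM per kb over all libraries. Dusp10 followed at 16.9, Dusp5 at 11.1, Dusp6 at 6.14 and Spred2 at 5.03 CPM per kb. Spry2 (1.5 CPM per kb), Dusp1 (1.20), Spred1 (0.522) and Dusp4 (0.484) were low. Spry1 (chromosome 3, 37639947 to 37644599, ENSMUSG00000037211) was at 0 counts in 14 of 18 libraries and at no more than 2 counts in the others, and was the 1 gene left out of the tests. A count of 0 allows up to 3 counts, or 0.102 to 0.268 CPM depending on the library, and this limit covers counting error only. Spry1 was thus not detectable above this limit in any genotype.

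**Figure D1:**
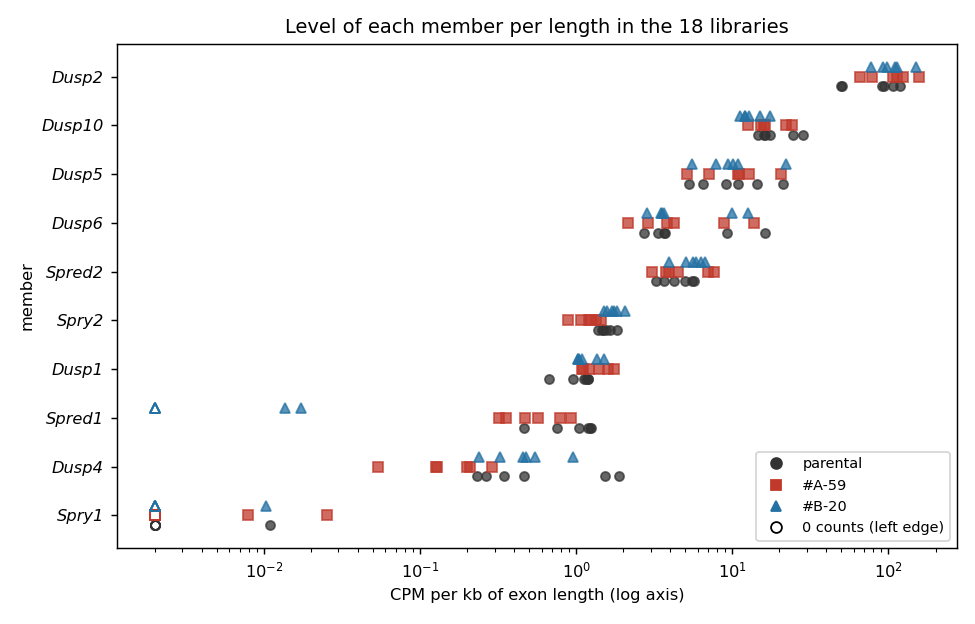
Level of each of the 10 genes in CPM per kb of exon length on a log axis, with 1 point per library and the genotypes as black circles (parental), red squares (#A-59) and blue triangles (#B-20). Open symbols at the left edge are libraries with 0 counts; Dusp2 lies at the top with a mean of 99.8 CPM per kb, and Spred1 in #B-20 and Spry1 lie at or near the left edge.

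Dusp2 (PAC-1), a nuclear phosphatase of activated leukocytes, lies on chromosome 2 of GRCm38 from 127336159 to 127338377 (ENSMUSG00000027368) and was lowest at 6 h in every genotype. Parental libraries held 194 and 227 CPM unstimulated, 106 and 107 CPM after 6 h, and 250.2 and 198 CPM after 18 h. #A-59 held 240.4 and 227 CPM unstimulated, 168 and 140.3 CPM after 6 h, and 334 and 262 CPM after 18 h. #B-20 held 208 and 235 CPM unstimulated, 197 and 164 CPM after 6 h, and 318 and 242 CPM after 18 h. In each genotype both 6 h libraries were below all others of that genotype. Parental Dusp2 fell by 0.98 on the log2 scale from 0 to 6 h (SE 0.15, FDR = 2.8e-04) and rose by 1.07 from 6 to 18 h (SE 0.15, FDR = 2.0e-05), where only the second change was a DEG. Without replicate 1 of the parental 18 h group the rise was 0.86 and no longer a DEG, as with the GC correction (0.99), and without replicate 1 of the 0 h group the fall was −1.10 and was one. The rise from 6 to 18 h also had an FDR under 0.01 in #A-59 (log2 0.95, FDR = 8.8e-05) and #B-20 (log2 0.63, FDR = 0.0039). The #B-20 rise missed the FDR with the GC correction (0.46, FDR = 0.023), with only the libraries compared (FDR = 0.026), and without its 18 h replicate 1 (0.41), its 6 h replicate 2 (0.48) or #A-59 6 h replicate 1 (0.62). The B cell markers ran the same way over these times. The #A-59 rise became a DEG without replicate 1 at 6 h (1.08) or replicate 2 at 18 h (1.11). The 6 h fall did not pass in #A-59 (log2 −0.60, FDR = 0.015) or #B-20 (log2 −0.29, FDR = 0.39). Over the alternative settings that kept every compared library, the FDR ran from 2.7e-07 to 0.071 in #A-59 and from 0.094 to 0.38 in #B-20. At 6 h all 4 clone libraries were above both parental ones, with a log2 fold change of 0.53 in #A-59 (SE 0.15, FDR = 0.0125) and 0.76 in #B-20 (SE 0.15, FDR = 0.0014), the latter past the FDR but short of a DEG. The #B-20 difference missed the FDR without parental 6 h replicate 1 (0.74) or 2 (0.76) or #B-20 6 h replicate 1 (0.605). For the #A-59 difference the FDR ran from 2.9e-06 to 0.036 over the alternative settings that kept every compared library.

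Dusp4 (MKP-2), a nuclear phosphatase of ERK and JNK and a classical early gene of mitogen stimulation, lies on chromosome 8 from 34807610 to 34819894 (ENSMUSG00000031530) and peaked at 6 h in parental cells. Its parental libraries held 0.759 and 0.662 CPM unstimulated, 5.37 and 4.42 CPM after 6 h, and 1.34 and 0.985 CPM after 18 h. In #A-59 the values were 0.576 and 0.155 CPM unstimulated, 0.833 and 0.604 CPM after 6 h, and 0.367 and 0.362 CPM after 18 h. In #B-20 they were 0.937 and 0.682 CPM unstimulated, 2.76 and 1.57 CPM after 6 h, and 1.31 and 1.38 CPM after 18 h. The parental 6 h libraries were thus above the other 16, and the #A-59 libraries of 6 h lay within the range of unstimulated cells of all genotypes. These levels rest on 3 to 123 counts per library.

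In parental cells Dusp4 rose by 2.77 on the log2 scale from 0 to 6 h (SE 0.32, FDR = 7.0e-06) and fell by 2.11 from 6 to 18 h (SE 0.33, FDR = 3.0e-05), both DEGs. The 6 h change was 0.87 in #A-59 (SE 0.46, FDR = 0.23), with 2.2 (FDR = 0.040) and 0.35 (FDR = 0.76) without replicate 1 and 2 of its 0 h group and 0.57 without its 6 h replicate 1, and 1.45 in #B-20 (SE 0.38, FDR = 0.047). At 6 h Dusp4 was lower in both clones than in parental cells, with a log2 fold change of −2.72 for #A-59 (SE 0.33, FDR = 3.6e-06) and −1.15 for #B-20 (SE 0.29, FDR = 0.0062), both DEGs. The #B-20 call was lost with DESeq2 (FDR = 0.023), without replicate 2 of the #B-20 6 h group (−0.83), and without replicate 1 (−1.01) or 2 (−1.29) of the parental 6 h group. At 18 h #A-59 had a log2 fold change of −1.61 (FDR = 0.030), short of the threshold, but was a DEG with replicate block and GC correction together (−1.67, FDR = 0.0068). Dusp4 was the 1 member called a DEG in both clones at 6 h besides Spred1.

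Dusp5, the nuclear phosphatase that acts on ERK alone, lies on chromosome 19 from 53529145 to 53541809 (ENSMUSG00000034765) and was lowest at 6 h and highest on average at 18 h. Parental libraries held 22.5 and 27.1 CPM unstimulated, 16.1 and 13.1 CPM after 6 h, and 52.0 and 35.5 CPM after 18 h. The corresponding values were 31.9 and 27.1, 17.5 and 12.7, and 50.9 and 27.3 CPM in #A-59. They were 24.9 and 23.3, 19.5 and 13.7, and 54.3 and 27.2 CPM in #B-20. Both 18 h libraries were above both 6 h libraries in each genotype, but the pairs at 18 h spread widely and overlapped the 0 h range in #A-59. The rise from 6 to 18 h was a DEG in parental cells (log2 1.57, SE 0.38, FDR = 0.0049) and missed the FDR in #A-59 (1.36, SE 0.38, FDR = 0.0127) and #B-20 (1.29, SE 0.37, FDR = 0.021). The parental call was lost in 7 of 18 fits with 1 library left out, namely without parental 18 h replicate 1 (1.25), parental 6 h replicate 1 (1.70) or 2 (1.40), and #A-59 0 h replicate 1 or 2 (1.56 each) and 6 h replicate 1 (1.54) or 2 (1.56). It was also lost with no filter on low counts (FDR = 0.027) and with only the libraries compared (FDR = 0.017). Conversely, the value of #A-59 became a DEG without its 18 h replicate 2 (1.72) or either 18 h library of #B-20 (1.35 each), and that of #B-20 without its 18 h replicate 2 (1.68) or either 18 h library of #A-59 (1.27 each). Both were DEGs with DESeq2 (1.37 and 1.31) and with the replicate number as a block (1.34, FDR = 3.1e-04 and 1.26, FDR = 6.8e-04). Block and GC correction together also called both (1.38, FDR = 0.0014 and 1.13, FDR = 0.0059). The #A-59 value was a DEG with only the libraries compared (FDR = 0.0028) and with at least 10 counts in every library (FDR = 0.0063) as well. Over the settings that kept every compared library, the FDR reached 0.056 in #A-59 and 0.15 in #B-20. Without replicate 1 at 18 h, however, the value was 0.82 in #A-59 and 0.69 in #B-20. The library numbered 1 was the higher of the pair at 6 and at 18 h in all 3 genotypes, for Dusp5 as for Dusp6, and the B cell markers rose over the same interval as well. No comparison of a clone with parental cells was called for Dusp5.

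Dusp6 (MKP-3), the cytoplasmic phosphatase of ERK and a common transcript readout of ERK activity, lies on chromosome 10 from 99263231 to 99267489 (ENSMUSG00000019960) and rose late in all 3 genotypes. Parental libraries held 11.4 and 12.3 CPM unstimulated, 12.6 and 9.17 CPM after 6 h, and 54.9 and 31.4 CPM after 18 h. #A-59 held 12.9 and 14.4, 9.77 and 7.31, and 46.4 and 29.8 CPM at the same times. #B-20 held 12.4 and 12.03, 11.9 and 9.67, and 42.5 and 33.9 CPM. All 6 libraries of 18 h were above the other 12, while the 3 genotypes overlapped at 18 h. The change from 0 to 18 h was a DEG in parental cells (log2 1.85, SE 0.26, FDR = 3.8e-05), #A-59 (1.49, SE 0.26, FDR = 2.5e-04) and #B-20 (1.64, SE 0.26, FDR = 2.3e-04). From 6 to 18 h the parental value was 1.97, that of #A-59 2.14 and that of #B-20 1.82, all DEGs. Leaving out any 1 library kept these 6 calls, but with only the 4 libraries compared in the fit the parental FDRs were 0.034 from 0 to 18 h and 0.068 from 6 to 18 h. Neither a change from 0 to 6 h nor a difference between a clone and parental cells was called. The predicted gene Gm34921 overlaps Dusp6, and counting without strand does not separate their reads.

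Dusp10 (MKP-5), which prefers JNK and p38 over ERK, lies on chromosome 1 from 184034381 to 184075636 (ENSMUSG00000039384). Parental libraries held 107 and 96.6 CPM unstimulated, 98.4 and 89.0 CPM after 6 h, and 172 and 149 CPM after 18 h. #A-59 held 92.8 and 97.5, 98.8 and 76.5, and 147 and 134 CPM. #B-20 held 77.3 and 73.2, 73.0 and 67.8, and 91.3 and 106 CPM and was below parental cells at each time without overlap. From 0 to 18 h Dusp10 rose with an FDR under 0.01 in parental cells (log2 0.66, SE 0.11, FDR = 1.4e-04) and #A-59 (0.56, SE 0.11, FDR = 6.3e-04), while #B-20 missed it (0.39, SE 0.12, FDR = 0.0139). From 6 to 18 h it passed in all 3 genotypes, with a log2 change of 0.77 (FDR = 1.9e-05) in the parental line, 0.68 (FDR = 1.2e-04) for #A-59 and 0.48 (FDR = 0.0033) for #B-20. With 1 library left out, the #A-59 change from 0 to 18 h missed the FDR without its replicate 1 of 0 h (0.52) or 18 h (0.47). The #B-20 change from 6 to 18 h missed it without its 6 h replicate 1 (0.53) or 2 (0.41) or 18 h replicate 2 (0.36). The difference of #B-20 from parental cells passed the FDR at 18 h (log2 −0.70, SE 0.11, FDR = 1.6e-04) and missed it at 0 h (−0.43, FDR = 0.0128) and 6 h (−0.41, FDR = 0.0145). Over the alternative settings that kept every compared library, these FDRs ran from 5.8e-04 to 0.0146 at 0 h and from 7.2e-04 to 0.0188 at 6 h. That of the #B-20 change from 0 to 18 h ran from 0.0011 to 0.0149. None of these changes was large enough for a DEG.

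Dusp1 (MKP-1), an immediate early phosphatase on chromosome 17 from 26505591 to 26508472 (ENSMUSG00000024190), held 2.23 to 5.83 CPM over all libraries. Its 9 group means ran from 2.98 CPM in parental cells at 18 h to 4.91 CPM in #A-59 at 6 h, and every group overlapped its neighbour in this order. No call was made for Dusp1 in any of the 22 comparisons. The 25 to 158 counts per library set the precision, with standard errors of 0.25 to 0.29 log2 units in the comparisons of 2 groups.

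Among the Sprouty genes, which block signals from growth factor receptors to Ras, only Spry2 could be tested. Spry2 lies on chromosome 14 from 105891947 to 105896819 (ENSMUSG00000022114) and held 4.59 to 10.6 CPM. At 6 h the libraries held 7.60 and 9.45 CPM in parental cells, 6.17 and 4.59 CPM in #A-59, and 8.12 and 7.77 CPM in #B-20. Both #A-59 libraries were below the other 4, with a log2 fold change against parental cells of −0.64 (SE 0.16, FDR = 0.0043). This FDR call was lost with only the libraries compared (FDR = 0.061), without parental 6 h replicate 2 (−0.49, FDR = 0.084) and without #A-59 6 h replicate 2 (−0.47, FDR = 0.047). At 18 h #B-20 held 10.6 and 9.44 CPM, above the parental values of 7.58 and 7.11 CPM (log2 0.45, SE 0.16, FDR = 0.048) and the #A-59 values of 6.39 and 5.55 CPM. BCR stimulation gave no call for Spry2 in any genotype.

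Spred1, on chromosome 2 from 117121071 to 117182279 (ENSMUSG00000027351), differed most between genotypes. Parental libraries held 264 and 232 counts unstimulated, 213 and 199 after 6 h, and 66 and 69 after 18 h, whereas the #B-20 libraries held 2 and 0, 0 and 0, and 3 and 0 counts. #A-59 held 181 and 139, 96 and 73, and 53 and 41 counts. As levels these were 9.55 and 9.60, 9.31 and 8.14, and 5.89 and 3.58 CPM in parental cells and 6.13 and 7.20, 3.64 and 4.41, and 2.78 and 2.47 CPM in #A-59. Every #B-20 library was thus below every library of the other genotypes, and #A-59 was below parental cells at each time.

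From summed counts of the 2 libraries, Spred1 in #B-20 was 149-fold lower than in parental cells at 0 h (95% counting interval 41.0 to 1231) and 81.1-fold lower at 18 h (27.2 to 398). At 6 h, where #B-20 had no counts, it was at least 103-fold lower, computed against 3 counts over the group. These intervals and bounds cover counting error only. All 3 differences were DEGs, with FDR = 1.1e-08, 4.6e-09 and 5.4e-08 at 0, 6 and 18 h, and so were the 3 differences of #B-20 from #A-59. The genes that follow Spred1 on the chromosome, Fam98b at a distance of 67.4 kb and Rasgrp1 at 97.7 kb, held 115 and 166 CPM in untreated #B-20 against 99.2 and 192 CPM in parental cells (log2 0.22, FDR = 0.21 and −0.21, FDR = 0.16), and at 6 and 18 h their FDRs were 0.034 to 0.67. These 2 genes were chosen after the values of Spred1 were seen.

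In #A-59, Spred1 at 6 h was lower than in parental cells by a log2 fold change of −1.13 (SE 0.24, FDR = 0.0017), a DEG that was lost without #A-59 6 h replicate 1 (−0.99), without parental 6 h replicate 1 (−1.04) and, by a narrow margin, with the GC correction. The differences at 0 h (−0.53, FDR = 0.14) and 18 h (−0.80, FDR = 0.067) were not called. Over 18 h of BCR stimulation Spred1 fell in parental cells (log2 −1.06, SE 0.25, FDR = 0.0021) and #A-59 (−1.33, SE 0.27, FDR = 6.0e-04), both DEGs. The parental call was lost without 18 h replicate 2 (−0.72) or 0 h replicate 1 (−1.09) or 2 (−1.085), and the #A-59 call was kept without any 1 library. From 6 to 18 h the parental value was −0.93 (FDR = 0.0053), and it was a DEG without 18 h replicate 1 (−1.32) but missed the FDR without 18 h replicate 2 (−0.58) or 6 h replicate 1 (−0.85) or 2 (−1.04).

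Spred2, on chromosome 11 from 19924442 to 20024026 (ENSMUSG00000045671), was lowest at 6 h in each genotype. Parental libraries held 33.8 and 34.7 CPM unstimulated, 22.3 and 19.9 CPM after 6 h, and 30.4 and 25.7 CPM after 18 h. #A-59 held 46.7 and 42.3, 22.8 and 18.7, and 27.2 and 24.1 CPM. #B-20 held 40.6 and 38.6, 30.7 and 24.1, and 34.2 and 35.5 CPM. Spred2 fell within 6 h in parental cells with an FDR under 0.01 (log2 −0.70, SE 0.13, FDR = 7.9e-04) and as a DEG in #A-59 (−1.09, SE 0.13, FDR = 2.1e-05), while #B-20 missed the FDR (−0.53, SE 0.13, FDR = 0.030). Over the alternative settings that kept every compared library, the #B-20 FDR ran from 0.0013 to 0.031. The parental value missed the FDR without 0 h replicate 2 (−0.69) or 6 h replicate 2 (−0.62). The #A-59 call was lost without 6 h replicate 2 (−0.97) and with only the libraries compared (FDR = 0.0138). In #A-59 the value at 18 h was still lower than at 0 h (log2 −0.80, FDR = 5.4e-05). In #B-20, where Spred1 was near 0, Spred2 had log2 differences from parental cells of 0.21 at 0 h (FDR = 0.28), 0.38 at 6 h (FDR = 0.038) and 0.32 at 18 h (FDR = 0.078), none of them called. The 6 h FDR ran from 0.0020 to 0.047 over the alternative settings that kept every compared library.

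**Figure D2:**
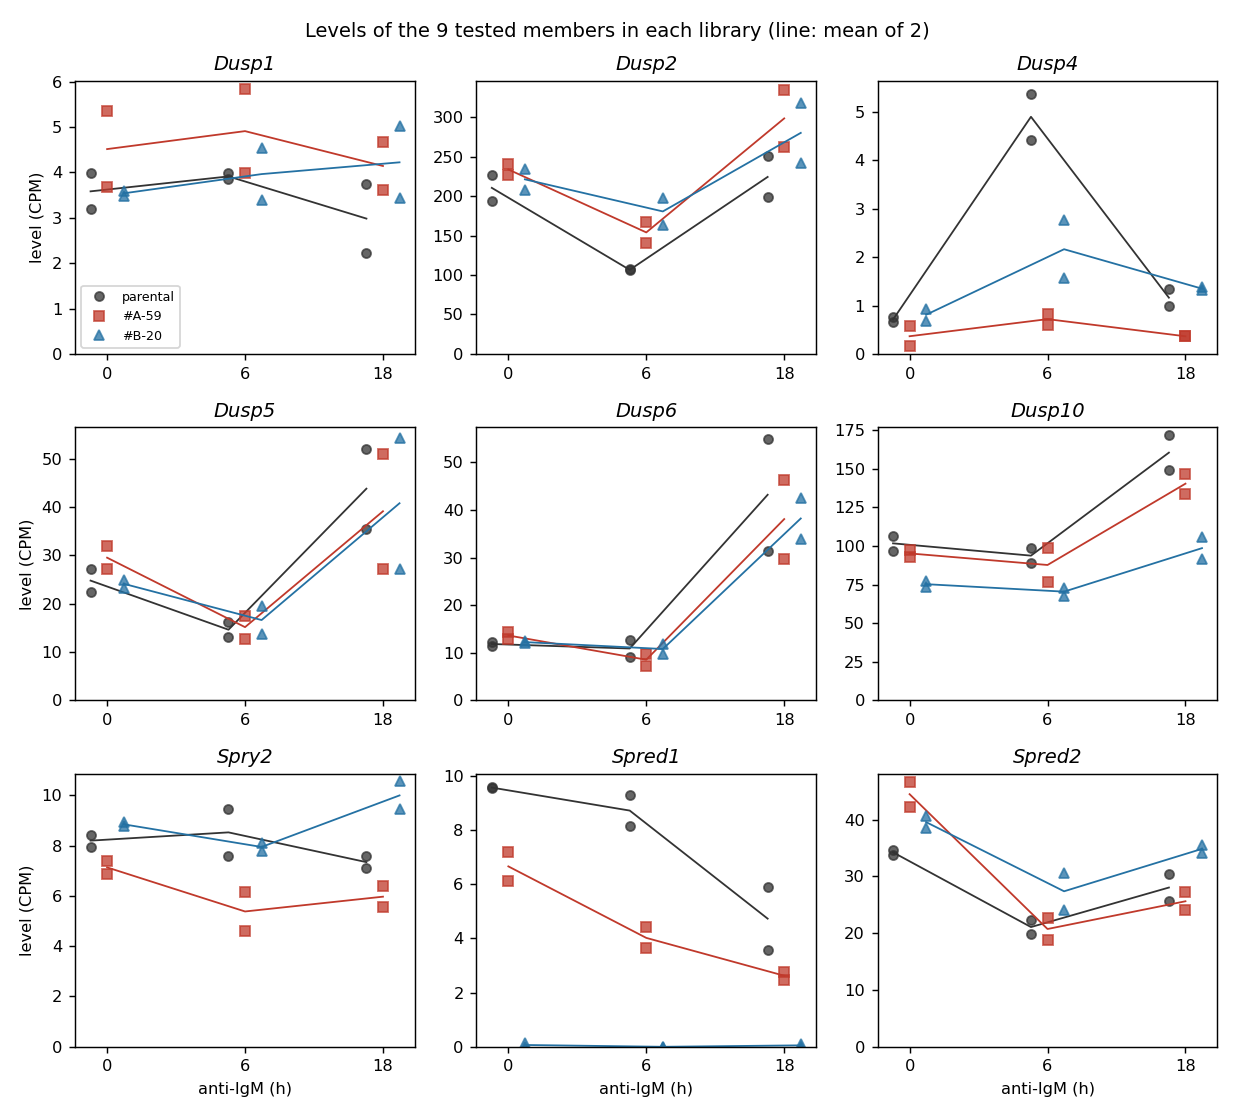
Level in CPM of the 9 tested genes at 0, 6 and 18 h of anti-IgM, with 1 point per library and lines through the mean of the 2 libraries of each group. Dusp4 peaks at 4.90 CPM in parental cells at 6 h against 0.719 CPM (#A-59) and 2.16 CPM (#B-20), Dusp6 rises at 18 h in each genotype, and Spred1 stays near 0 in #B-20.

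Over the 9 BCR comparisons within a genotype, 13 of 81 values were DEGs, 9 higher and 4 lower. The 81 include Spred1 within #B-20, where the counts were too few to decide. In parental cells 1 of 9 genes was a DEG at 6 h (Dusp4), against 2.62% of all genes tested. At 18 h these were 2 (Dusp6 higher, Spred1 lower; 10.3% of all genes), and from 6 to 18 h they were 4 (Dusp2, Dusp5 and Dusp6 higher, Dusp4 lower; 13.5%). In #A-59 they were 1 at 6 h (Spred2; 1.39%), 2 at 18 h (Dusp6 and Spred1; 8.76%) and 1 from 6 to 18 h (Dusp6; 9.02%). In #B-20 there was none at 6 h (0.385%) and Dusp6 alone at 18 h (4.8%) and from 6 to 18 h (4.45%). By the FDR alone, 24 of 81 values were called, 16 higher and 8 lower. The most were 6 of 9 in parental cells from 6 to 18 h, a comparison in which 38.3% of all genes passed. In parental cells 3 of 9 passed from 0 to 6 h (7.34% of all genes) and 3 from 0 to 18 h (32.6%). In #A-59 these were 1 (6.14%) and 4 (31.8%), with 3 from 6 to 18 h (31.9%). In #B-20 they were 0 (1.29%) and 1 (22.8%), with 3 from 6 to 18 h (22.6%). The counts stand beside these shares as a description of 9 genes.

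Between the clones and parental cells, 6 of 54 values were DEGs, all lower in the clone. In #A-59 there was none of 9 at 0 h (4.78% of all genes, 2.48% lower) or 18 h (4.92%, 2.91% lower) and 2 at 6 h, Dusp4 and Spred1 (7.91%, 3.64% lower). In #B-20 Spred1 was called at 0 h (5.16% of all genes, 3.37% lower) and 18 h (6.21%, 4.3% lower), and Dusp4 and Spred1 at 6 h (6.73%, 3.85% lower). The median log2 fold change of the 9 genes lay between −0.16 and 0.26 in these 6 comparisons, beside medians of −0.02 to 0.01 over all genes. A stricter filter, 10 counts or more in each library, removes Dusp4 and Spred1 and leaves no call. By the FDR alone 9 values were called, with Spry2 added in #A-59 at 6 h (22.7% of all genes), Dusp2 in #B-20 at 6 h (higher; 14.2%) and Dusp10 in #B-20 at 18 h (14.2%). In the other comparisons the FDR alone added nothing to the DEGs, beside 9.56% of all genes in #A-59 at 0 h, 10.4% in #A-59 at 18 h and 10.7% in #B-20 at 0 h.

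**Figure D3:**
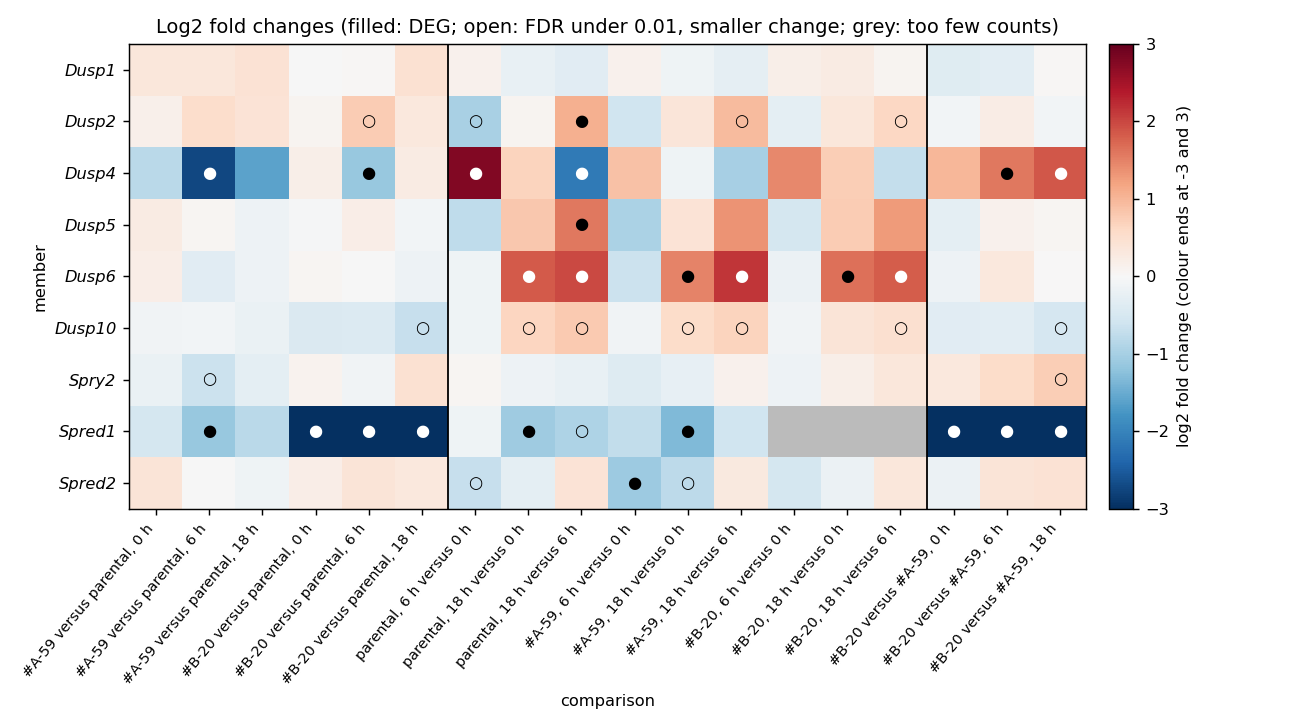
Log2 fold change of the 9 tested genes in the 18 comparisons of 2 groups, as colour from −3 (blue) to 3 (red), with larger values drawn at the end of the scale. Black lines part the clone against parental, BCR response and clone against clone comparisons; filled dots are the 24 DEGs, open dots an FDR under 0.01 with a smaller change, and grey cells Spred1 in #B-20, where counts were too few.

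Whether a clone responded to BCR stimulation differently from parental cells was tested by the difference of the log2 responses. None of the 36 differences was a DEG in edgeR or DESeq2 or had an FDR under 0.01 in edgeR, and 5 had an unadjusted p under 0.05 in edgeR. The 36 include Spred1 in #B-20 (−3.43, SE 2.21 at 6 h and 0.84, SE 1.48 at 18 h), where the counts were too few to decide. All genes tested were called at 0.339% (#A-59, 6 h), 0.0326% (#A-59, 18 h), 0.131% (#B-20, 6 h) and 0.163% (#B-20, 18 h). The 5 values were Dusp4 at 6 h in #A-59 (−1.90, SE 0.58, FDR = 0.12) and #B-20 (−1.32, SE 0.52, FDR = 0.48), Dusp2 at 6 h in #B-20 (0.69, SE 0.22, FDR = 0.25, but 0.0011 with no filter on low counts and 0.036 with only the libraries compared), and Spred2 in #A-59 at 6 h (−0.39, SE 0.18, FDR = 0.33) and 18 h (−0.50, SE 0.18, FDR = 0.51). The lower 6 h level of Dusp4 in the clones thus passed the test of levels, whereas the smaller 6 h change of Dusp4 did not pass the test of the difference between responses. The #A-59 difference for Dusp4 depended on its unstimulated libraries of 17 and 3 counts, being −0.57 without replicate 1 of 0 h (FDR = 0.85) and −2.42 without replicate 2 (FDR = 0.049).

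**Figure D4:**
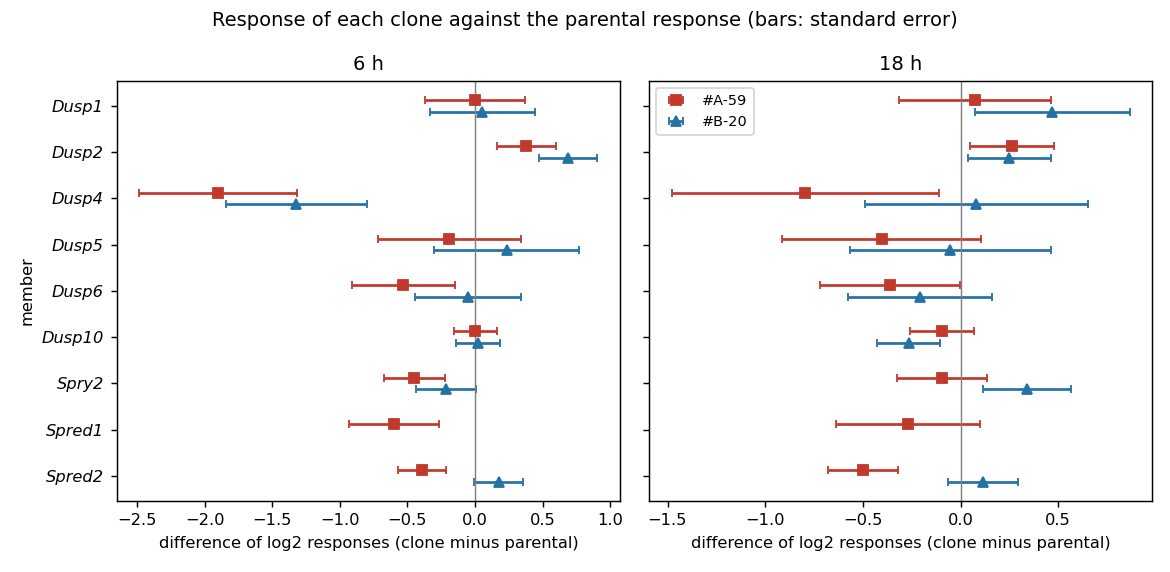
Difference between the log2 response of a clone and that of parental cells at 6 h (left) and 18 h (right) for each tested gene, with the standard error as bars; Spred1 of #B-20 is left out for its low counts. Dusp4 at 6 h lies farthest from 0, at −1.90 (#A-59) and −1.32 (#B-20), where none of the values passed the FDR.

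The clones also differed from each other, with 5 of 27 values called as DEGs. Spred1 was lower in #B-20 at each time, and Dusp4 was higher in #B-20 than in #A-59 at 6 h (log2 1.57, SE 0.36, FDR = 0.0030) and 18 h (1.87, SE 0.44, FDR = 0.0041). All genes were called at 3.85% at 0 h, 5.82% at 6 h and 4.82% at 18 h. Both Dusp4 calls were lost with only the 4 libraries compared. The 6 h call was also lost without #A-59 replicate 1 (1.86) or 2 (1.39) or #B-20 replicate 1 (1.07), and the 18 h call without any 1 of the 4 libraries (1.83 to 1.90). By the FDR alone Spry2 was higher (log2 0.74, FDR = 0.0019) and Dusp10 lower (−0.51, FDR = 0.0027) in #B-20 at 18 h, where 16.2% of all genes passed. Spry2 missed the FDR with only the libraries compared (FDR = 0.021) and without #A-59 18 h replicate 1 (0.85) or 2 (0.64) or #B-20 18 h replicate 1 (0.66), and Dusp10 without replicate 1 of #A-59 (−0.44) or #B-20 (−0.41) at 18 h. At 0 h (8.41%) and 6 h (18.7%) it added none.

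Other genes of the pathway were taken from lists written by their place in it. Of 10 further dual-specificity phosphatases, 8 could be tested. None was a DEG of the parental BCR response at 6 or 18 h, beside 2.62% and 10.3% of all genes. Dusp9 (MKP-4), an ERK phosphatase, was a DEG in both clones at 0 and 6 h. Its mean level in parental cells was 0.817 CPM at 0 h and 0.661 CPM at 6 h. The #A-59 means at these times were 0.0259 and 0 CPM, those of #B-20 0.129 and 0.0492 CPM. The calls for #B-20 were lost with DESeq2 (FDR = 0.082 at 0 h and 0.036 at 6 h), and with 1 library left out in 15 of 18 fits at 0 h and 2 at 6 h. The #A-59 call at 0 h was lost without its 0 h replicate 1 (FDR = 0.0195).

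Of 18 further Sprouty, Spred and Ras-Raf inhibitors, 17 could be tested. In the parental response at 18 h, 2 rose and 1 fell as DEGs (10.3% of all genes), and 7 rose and 3 fell by the FDR alone (32.6%). Rasa3, which inactivates Ras, rose from 9.62 to 28.0 CPM (log2 1.54, FDR = 4.6e-08), and the adaptor Dok3 from 70.3 to 152 CPM (1.11, FDR = 3.6e-08, or 0.98 without parental 0 h replicate 1). Rasal1, another Ras inactivator, fell from 64.5 to 28.45 CPM (−1.18, FDR = 3.5e-06). Rasal1 was also lower in both clones at 6 h (log2 −1.39 in #A-59 and −1.49 in #B-20). Rassf5, which binds active Ras and Rap1, was lower in both at 18 h (−1.44, FDR = 0.0040 in #A-59 and −1.76, FDR = 3.9e-04 in #B-20). The #A-59 call of Rassf5 was lost when any 1 of the 4 libraries compared was left out (−1.66 to −1.25), and the #B-20 call with only the libraries compared (FDR = 0.0106). Spred3, the third Spred gene, chosen after its values were seen, had mean levels of 24.7, 21.1 and 46.5 CPM in parental cells and a log2 change from 0 to 18 h of 0.91 (parental), 0.94 (#A-59) and 1.03 (#B-20), each with an FDR under 0.01. The #B-20 value was the 1 DEG among these, and it was 0.65 without 18 h replicate 1 and 0.92 without 0 h replicate 2.

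Of 28 genes of the ERK cascade from the Ras activators to the kinases downstream of ERK, 26 could be tested. Rasgrp2, an activator of Rap1, fell by 1.095 on the log2 scale at 6 h of the parental response (FDR = 3.45e-06). Rps6ka5 (MSK1), a nuclear kinase downstream of ERK and p38, rose by 1.38 at 18 h (FDR = 2.3e-07). They were the only DEGs of this list in the parental response from 0 to 6 or 18 h (2.62% and 10.3% of all genes). No gene of the cascade was a DEG between a clone and parental cells at any time (4.78% to 7.91% of all genes). By the FDR alone, 6 were higher and 2 lower in #A-59 at 6 h (22.7% of all genes). In each other comparison of a clone with parental cells, 1 was higher and 0 to 2 were lower (9.56% to 14.2%). Of 16 genes of the JNK and p38 cascades, 15 could be tested. None was a DEG of the parental response at 6 or 18 h, where the same shares of all genes apply. In #A-59 they held 1, 2 and 1 lower DEGs against parental cells at 0, 6 and 18 h (4.78%, 7.91% and 4.92% of all genes in either direction), and in #B-20 none. These were Map3k5 (ASK1), a kinase at the head of both cascades, with log2 values of −1.51, −2.10 and −2.63, and at 6 h Mapkapk2 (MK2), the kinase downstream of p38 (−1.20, FDR = 1.3e-08), both chosen after their values were seen. The 0 h call of Map3k5 was lost without parental 0 h replicate 1 (−1.27) or #A-59 0 h replicate 2 (−1.31).

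Of 24 genes that respond to ERK in many cells, 23 could be tested. In the parental response at 6 h the ETS factors Etv4 (log2 2.44, FDR = 2.4e-05) and Elk3 (1.95, FDR = 1.2e-06) rose. Egr3 (−1.55, FDR = 0.0055) and the cyclin Ccnd2 (−1.14, FDR = 1.2e-07) fell. Etv4 had a mean of 0.535, 2.95 and 0.564 CPM at 0, 6 and 18 h in parental cells, and its 6 h level was 0.801 CPM (#A-59) and 1.37 CPM (#B-20) in the clones. Both were lower than in parental cells as DEGs (log2 −1.88, FDR = 1.0e-04 and −1.14, FDR = 0.0075), where the #B-20 call was lost with DESeq2 (FDR = 0.069) and in 9 of 18 fits with 1 library left out (−1.51 to −0.81). At 18 h Elk3 was still higher (1.86, FDR = 5.7e-07), and the cyclin Ccnd1 (−1.52, FDR = 0.0013) and Ier3 (−1.35, FDR = 0.0089) were lower than at 0 h. With 1 library left out, Ccnd1 was lost without either parental 18 h library (FDR = 0.0125 and 0.0172), Egr3 in 10 of 18 fits (−1.71 to −1.39) and Ier3 in 8 (−1.85 to −0.89). The list as a whole had 2 higher and 2 lower DEGs at 6 h and 1 higher and 2 lower at 18 h, with medians of −0.12 and 0.17 beside 0.01 and 0.04 over all genes tested, of which 2.62% and 10.3% were DEGs. Against parental cells at 6 h it had 1 higher and 4 lower DEGs in #A-59 (median −0.36; 7.91% of all genes) and 2 lower in #B-20 (median 0.00; 6.73%). The members of these counts besides Etv4 are named here after their values were seen. In #A-59 the immediate early factor Egr1 (log2 −4.70, FDR = 0.0081), the ETS factors Etv5 (−1.73, FDR = 6.4e-06) and Elk3 (−1.42, FDR = 1.1e-05) were lower, and the AP-1 subunit Fosl2 was higher (1.05, FDR = 0.0031). In #B-20 it was Plaur, the urokinase receptor (−1.96, FDR = 1.2e-06). The Fosl2 call was lost with the GC correction (0.97) and without parental 6 h replicate 1 (0.87) or 2 (1.23) or #A-59 6 h replicate 1 (0.98). Against parental cells at 18 h, 15 of 23 genes of the list were higher in each clone (median 0.30 in #A-59 and 0.15 in #B-20). There #A-59 had 1 higher and 1 lower DEG (4.92% of all genes) and #B-20 had 1 lower (6.21%). At 0 h each clone had 1 lower DEG (4.78% and 5.16%), with medians of −0.0004 in #A-59 and −0.29 in #B-20.

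Egr1 was also a DEG in #A-59 before stimulation (log2 −5.08, SE 1.03, FDR = 0.0083), the 1 DEG of the list there. Its mean level was 52.5 (SD of 2 libraries 6.5), 35.5 (15.7) and 56.8 CPM (50.1) in the parental groups of 0, 6 and 18 h. At these times #A-59 had 1.53 (0.18), 1.31 (0.40) and 5.96 CPM (4.25). In #B-20 the means were 9.95 (1.19), 32.6 (17.1) and 46.7 CPM (35.1), so that the 2 libraries of a stimulated group could differ widely. The calls of Egr1 lie close to the threshold and were lost with no filter on low counts (FDR = 0.0159 at 0 h and 0.0168 at 6 h) and with 1 library left out in 14 of 18 fits at 0 h (−5.22 to −4.94) and 13 at 6 h (−5.11 to −4.17). The #B-20 difference at 0 h was not called (−2.40, FDR = 0.085). It was a DEG with only the libraries compared (−2.39, FDR = 2.8e-06), and its FDR reached 0.17 under another setting.

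The pattern of each gene over the 18 libraries was compared with 11209 or fewer other genes of sufficient level by Pearson's r of the log2 CPM. Libraries of a group share their genotype and time, so that these values are descriptions. Dusp6 was most like Rasa3 (r = 0.96), followed by Cyb561d1 and Slc44a2 (both 0.94). Dusp4 was most like Itm2a (0.95), then Map7d1 (0.91) and Rfc1 (0.90). Spred1 was most like Akap11 (0.98), Nes (0.98) and Zfp11 (0.98), Dusp10 like Arel1 (0.96), Lgals9 (0.95) and Plekho2 (0.94), and Dusp2 like Arid1b (0.94), Grap2 (0.94) and Gimap6 (0.93). The nearest genes of Dusp5 were Zkscan17 (0.90), Dgkd (0.90) and Dcaf12 (0.89), those of Spred2 Sec16a (0.92), Tnf (0.88) and Siah2 (0.87), those of Spry2 L3mbtl3 (0.87), Pitpnm2 (0.86) and Nsg2 (0.84), and those of Dusp1 Zfp395 (0.81), Apba3 (0.81) and Ppp1r13l (0.80). Among the genes themselves, Dusp5 went with Dusp6 (r = 0.87) and with Dusp2 (0.85), whereas Dusp4 ran against Dusp2 (−0.62).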

How the data were processed

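RNA of 18 WEHI-231 libraries was analysed, 2 independent experiments for each of 9 groups, assigned by their labels. Single-end reads of TruSeq mRNA libraries, which do not keep strand, were aligned by the authors to GRCm38 with STAR (2.5 in the submitters' processing notes) and counted with featureCounts (1.5.0-p1). The deposited values are counts per Ensembl gene without normalization. Counts cannot separate reads of overlapping genes, and the number of reads lost before counting is not given in the sources used here. The counts were tested in edgeR 4.0.16 (R 4.3.3). Low genes were removed by filterByExpr, libraries scaled by TMM, and 1 quasi-likelihood model (robust, a mean per group) fitted to all libraries, since 2 per group give few degrees of freedom. P-values were adjusted over all genes for each of 22 comparisons. The standard error is the log2 fold change divided by the square root of F. The fits were first tested on simulated data.

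Alternatives were DESeq2 1.42.0, its size factors, no filter on low counts or a minimum of 10 counts per library, a fit to the compared libraries alone, the replicate number as a block, a correction for GC content by loess (span 0.5), block and correction together, and each library left out. The 10 genes and the gene lists were chosen with earlier results of these data known. Named beside them are Tfeb, the 3 genes most like each member, and per list up to 3 DEGs in each direction shared by both clones at a time or in the parental response. Names came from GENCODE vM39 by identifier (51731 genes, 93.2%), coordinates and promoters from RefSeq on GRCm38. Spry3 and Rps6ka4 were not used here. Protein sequences were not used here.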

Additional observations from a re-analysis of the deposited data

How the results depend on the processing

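With 2 libraries per group, the p-values of the main fit rest on a spread estimated over all 18 libraries and in part shared between genes. They do not measure the spread within the groups compared alone. That spread was uneven. As chi-square per degree of freedom between paired libraries, the 6 h pair of #B-20 had 58.2 and that of #A-59 33.25. The remaining groups lay between 3.57 (parental, 6 h) and 16.7. Correlations between paired libraries were lowest for the same clone pairs (0.988 and 0.989, elsewhere 0.991 to 0.995). Standard errors of 6 h comparisons with a clone may therefore understate the spread of these pairs. Low genes (Dusp4, Spred1, Dusp9) rest on few counts. DESeq2, its size factors, no filter, the replicate block, the GC correction and both together gave 5 to 7 DEGs among the members between clones and parental cells (6 in the main analysis), 12 to 15 in the BCR response (13), 0 in the differences of responses and 5 between the clones. With a minimum of 10 counts per library, which keeps 7 members and leaves out Dusp4 and Spred1, both the clone against parental and the clone against clone comparisons had 0 calls and the BCR response 10. With only the libraries compared the BCR response had 10 calls as well, and the clones against each other 3 in place of 5. When 1 library at a time was removed, the calls among members were 4 to 6 between clones and parental cells, 11 to 16 in the BCR response, 0 to 0 in the differences of responses and 4 to 5 between the clones.

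The replicate numbers of the labels are not said to mark a shared day or batch, and deviations of same-numbered libraries correlated at −0.0258 to 0.32 over 36 pairs of groups (median 0.0777, 14 above 0.1). With the replicate block, the members had 6 calls between clones and parental cells, 15 in the BCR response, 0 in the differences of responses and 5 between the clones. The 2 further response calls were Dusp5 from 6 to 18 h in #A-59 (1.34, FDR = 3.1e-04) and #B-20 (1.26, FDR = 6.8e-04), which DESeq2 called as well (1.37 and 1.31). With block and GC correction together Dusp4 was a DEG in #A-59 against parental cells at 18 h (−1.67, FDR = 0.0068). Of 16 member values called by the FDR alone, 7 kept that call under every alternative run and 9 lost it under at least 1. Of 110 single values recomputed under these alternatives, none changed direction. They gave 2831 values over all alternatives together, of which 2662 kept their call and direction. In 148 a call was lost and in 21 a call was gained. The cause of the changed calls was not tested.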
